A study of Mus musculus with 24 samples.

Results

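The choroid plexus genes described here are 10 genes chosen by name: Ttr together with Kl, Folr1, Clic6, Kcnj13, Aqp1, Otx2, Enpp2, Sostdc1 and Prlr. They were chosen with earlier results of these data known, so the counts of members called are no independent test of the set. All 10 were found among the 55487 gene identifiers counted in each library. Gene expression was measured by polyA RNA-seq in brain regions of wild-type mice that had either undergone bulbectomy, in which the olfactory bulbs are taken out, or been sham-operated. The labels used here state no strain, sex, age or interval between operation and dissection. There were 4 bulbectomy and 5 sham libraries of hippocampus. Cortex had 3 bulbectomy libraries, numbered 1, 2 and 4, and 5 sham libraries. Cerebellum had 2 bulbectomy and 5 sham libraries. The labels do not say whether libraries of a group came from separate animals, so the p-values measure only the spread between these libraries, which may be technical.

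The choroid plexus is a sheet of secretory epithelium that hangs into the ventricles of the brain and makes the cerebrospinal fluid. It lies against the hippocampus in the lateral ventricle and against the cerebellum in the fourth ventricle, and is not part of either tissue. Its epithelium makes transthyretin, the carrier of thyroxine and, in a complex with another protein, of retinol, in very large amounts. The Ttr gene lies on chromosome 18, 20665280 to 20674321. The epithelium also moves ions, water, folate and hormones between blood and cerebrospinal fluid.

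The members fall into 4 kinds by the role of their products. Secreted products come from Ttr, from Enpp2 (chromosome 15, 54838901 to 54952892), which encodes autotaxin, the enzyme that makes lysophosphatidic acid, and from Sostdc1 (chromosome 12, 36314139 to 36318452), an antagonist of BMP and Wnt signalling. Receptors and co-receptors come from Kl (chromosome 5, 150952607 to 150993817), which encodes klotho, a co-receptor of FGF23, from Folr1 (chromosome 7, 101858331 to 101870788), the folate receptor alpha that carries folate into the cerebrospinal fluid, and from Prlr (chromosome 15, 10177238 to 10349180), the prolactin receptor. Channels come from Kcnj13 (chromosome 1, 87386363 to 87394729), the inward-rectifier potassium channel Kir7.1, from Aqp1 (chromosome 6, 55336432 to 55348555), the water channel of the apical membrane, and from Clic6 (chromosome 16, 92485736 to 92541243), of the chloride intracellular channel family. Otx2 (chromosome 14, 48657677 to 48673819) encodes a homeodomain transcription factor needed to form and maintain the choroid plexus. Enpp2 is also transcribed in oligodendrocytes and Otx2 in some neurons of the developing hindbrain, so neither marks the epithelium alone. Coordinates are on GRCm38 (mm10), counted from 1.

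Promoter windows, 250 bases before to 50 bases after a start site, were held by the RefSeq table for GRCm38.p6 for 5 of the 10 members, in 10 windows. They are shown because Otx2 is the transcription factor of the set and Kcnj13 the member with the highest Pearson r with Ttr in the hippocampus. The motif TAATCC is the core bound by OTX-type homeodomains and reads GGATTA on the other strand, and TATAAA, the TATA box, reads TTTATA there. Both strands were searched, and the matches did not overlap each other. TAATCC stood in 1 of the 10 windows, against 7.06% of the 32851 promoter windows of that length, and TATAAA in 2 of the 10, against 13.6%. Of several Otx2 windows, 1 held TAATCC and another held TATAAA, 192 bases before its start. The first sequence is the former, at chr14:48665060-48665359 on the minus strand, with GGATTA in capitals 211 bases before the start. The second is the Kcnj13 window at chr1:87394680-87394979 on the minus strand, with TATAAA in capitals 29 bases before the start. A match is a description of letters, not a site shown to be bound.
Otx2: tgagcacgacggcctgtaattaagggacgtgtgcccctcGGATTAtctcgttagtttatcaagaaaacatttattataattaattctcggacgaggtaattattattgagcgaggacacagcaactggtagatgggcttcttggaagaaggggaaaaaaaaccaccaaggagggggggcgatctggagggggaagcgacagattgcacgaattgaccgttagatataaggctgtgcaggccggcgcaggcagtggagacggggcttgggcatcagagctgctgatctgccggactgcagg
Kcnj13: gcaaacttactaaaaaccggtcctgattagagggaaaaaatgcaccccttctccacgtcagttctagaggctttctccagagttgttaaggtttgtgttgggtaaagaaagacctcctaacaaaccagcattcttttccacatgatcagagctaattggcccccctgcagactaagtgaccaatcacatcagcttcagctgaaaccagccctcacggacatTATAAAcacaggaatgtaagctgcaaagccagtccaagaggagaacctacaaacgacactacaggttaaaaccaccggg

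Reads assigned to genes numbered 3255661 in hippocampus sham 1 and 138963332 in hippocampus sham 4. The remaining 22 libraries held between 8145624 and 20230673. Hippocampus sham 1 and sham 2 stood apart: the summed level of 14 genes of striatal medium spiny neurons was 2682 and 3783 CPM there, against 285 to 478 CPM in the other 7 hippocampus libraries. The main hippocampus results are also given without them. Summed over 10 defining genes each, markers of hippocampal principal cells measured 331 to 766 CPM in hippocampus, 199 to 596 CPM in cortex and 102 to 137 CPM in cerebellum, and the lowest hippocampus value was that of sham 2. Markers of granule and Purkinje cells measured 4137 to 6383 CPM in cerebellum and at most 181 CPM elsewhere. Neocortical markers, of which 9 were found, measured 452 to 571 CPM in cortex and at most 315 CPM elsewhere. Endothelial genes summed to 206 to 399 CPM over all 24 libraries. Levels are CPM, the reads of a gene relative to the TMM-scaled total of assigned reads in its library, scaled within each tissue unless stated otherwise. Because Kcnj13 shares 49.1% of its exon bases with a gene on the opposite strand, Enpp2 5.97% and Otx2 3.65%, and the strand setting of the counting is not given, reads of these genes cannot be fully told apart from their neighbours'. Otx2 also shares 3.98% of its exon bases, and Prlr 1.32%, with a gene on the same strand.

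In sham mice, Ttr and most of the other choroid plexus genes were higher in hippocampus and cerebellum than in cortex. In the 15 sham libraries scaled together, Ttr averaged 351 ± 333 CPM in hippocampus, 3.15 ± 1.48 CPM in cortex and 379 ± 502 CPM in cerebellum (SD, n = 5 each). Its standard deviation in hippocampus and cerebellum was about as large as its mean, and sham hippocampus libraries spanned 28.6 to 847 CPM. Sham cerebellum libraries spanned 6.46 to 1227 CPM, and sham cortex libraries 1.64 to 5.08 CPM, below every other sham library.

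Between sham hippocampus and sham cortex, 7 of the 10 members were called, all higher in hippocampus (edgeR's quasi-likelihood fit, p adjusted over all genes after Benjamini and Hochberg, threshold 0.05), where 3.3% of 15142 genes were called and 2.09% were called higher. Ttr differed by 6.81 ± 1.33 on the log2 scale (SE; edgeR adjusted p = 0.00979) and Otx2 by 4.61 ± 0.55 (adjusted p = 0.000414). The other called members were Folr1 (5.03 ± 1.08), Clic6 (4.68 ± 1.01), Sostdc1 (3.96 ± 0.96), Kl (3.88 ± 0.91) and Prlr (3.11 ± 0.80). Kcnj13, Aqp1 and Enpp2 were not called, with log2 differences of 1.60 ± 0.64, 3.26 ± 0.97 and 1.84 ± 0.64. Of 30 other genes known from choroid plexus epithelium, 27 were tested and 8 were called, all higher in hippocampus, with a median log2 difference of 1.60, against 3.92 for the members and 0.02 for all genes. The number of members called fell to 1 with no filter on low counts, to 4 without hippocampus sham 1, 3 or 4 or cortex sham 1, 2, 4 or 5, and to 2 without cortex sham 3. Without hippocampus sham 1 and 2 together it was 6.

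Between sham cortex and sham cerebellum, 6 members were called, all lower in cortex, where 34.7% of genes were called and 17.9% were called lower. Otx2 differed by -6.40 ± 0.56 (edgeR adjusted p = 1.73e-07), Ttr by -6.91 ± 1.33 (adjusted p = 0.000674), Folr1 by -4.69 ± 1.07 and Clic6 by -4.03 ± 0.99. Kl and Kcnj13 were called nearer the threshold, at -2.38 ± 0.87 and -1.73 ± 0.63 (edgeR adjusted p = 0.0435 and 0.0424). Among the other choroid plexus genes, 16 of 27 were called lower in cortex and none higher. The count was 4 or 5 without any 1 cortex library or without cerebellum sham 1, 2 or 4, and 9 without cerebellum sham 3 or sham 5.

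Sham hippocampus and sham cerebellum differed at Otx2 and Prlr alone among the members, where 28.4% of genes were called. Otx2 averaged 6.78 ± 3.82 CPM in hippocampus and 23.3 ± 7.72 CPM in cerebellum (SD, n = 5 each), a log2 difference of -1.79 ± 0.42 (edgeR adjusted p = 0.00407). Prlr averaged 3.69 ± 1.93 CPM in hippocampus and 0.830 ± 0.857 CPM in cerebellum, a difference of 2.16 ± 0.75 (edgeR adjusted p = 0.0403). Otx2 was called in every setting run. Prlr lost its call with no filter on low counts, without hippocampus sham 1 and 2 together, and without hippocampus sham 1, 3, 4 or 5 or cerebellum sham 2, 3 or 5 (adjusted p up to 0.0923). None of the 27 other choroid plexus genes tested was called between these tissues.

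Per kilobase of exon, Ttr was the most abundant member in the sham hippocampus, at 296 ± 280 CPM per kb (SD, n = 5). Enpp2 followed at 70.6 ± 48.5, then Folr1 at 13.6 ± 10.9, Sostdc1 at 7.29 ± 5.72 and Clic6 at 6.11 ± 5.73 CPM per kb. Aqp1 stood at 3.82 ± 3.24, Kl at 2.91 ± 2.29, Kcnj13 at 2.23 ± 1.65, Otx2 at 1.61 ± 0.91 and Prlr at 0.241 ± 0.126 CPM per kb. From Sostdc1 down to Otx2, each mean lay within the spread (SD) of the gene just before it in this order. In the sham cortex the order began instead with Enpp2 at 19.7 ± 2.81 CPM per kb, ahead of Ttr at 2.66 ± 1.25. In the sham cerebellum Otx2 stood at 5.53 ± 1.83 CPM per kb, ahead of Clic6 at 3.85 ± 4.06 but within its spread.

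**Figure D1:**
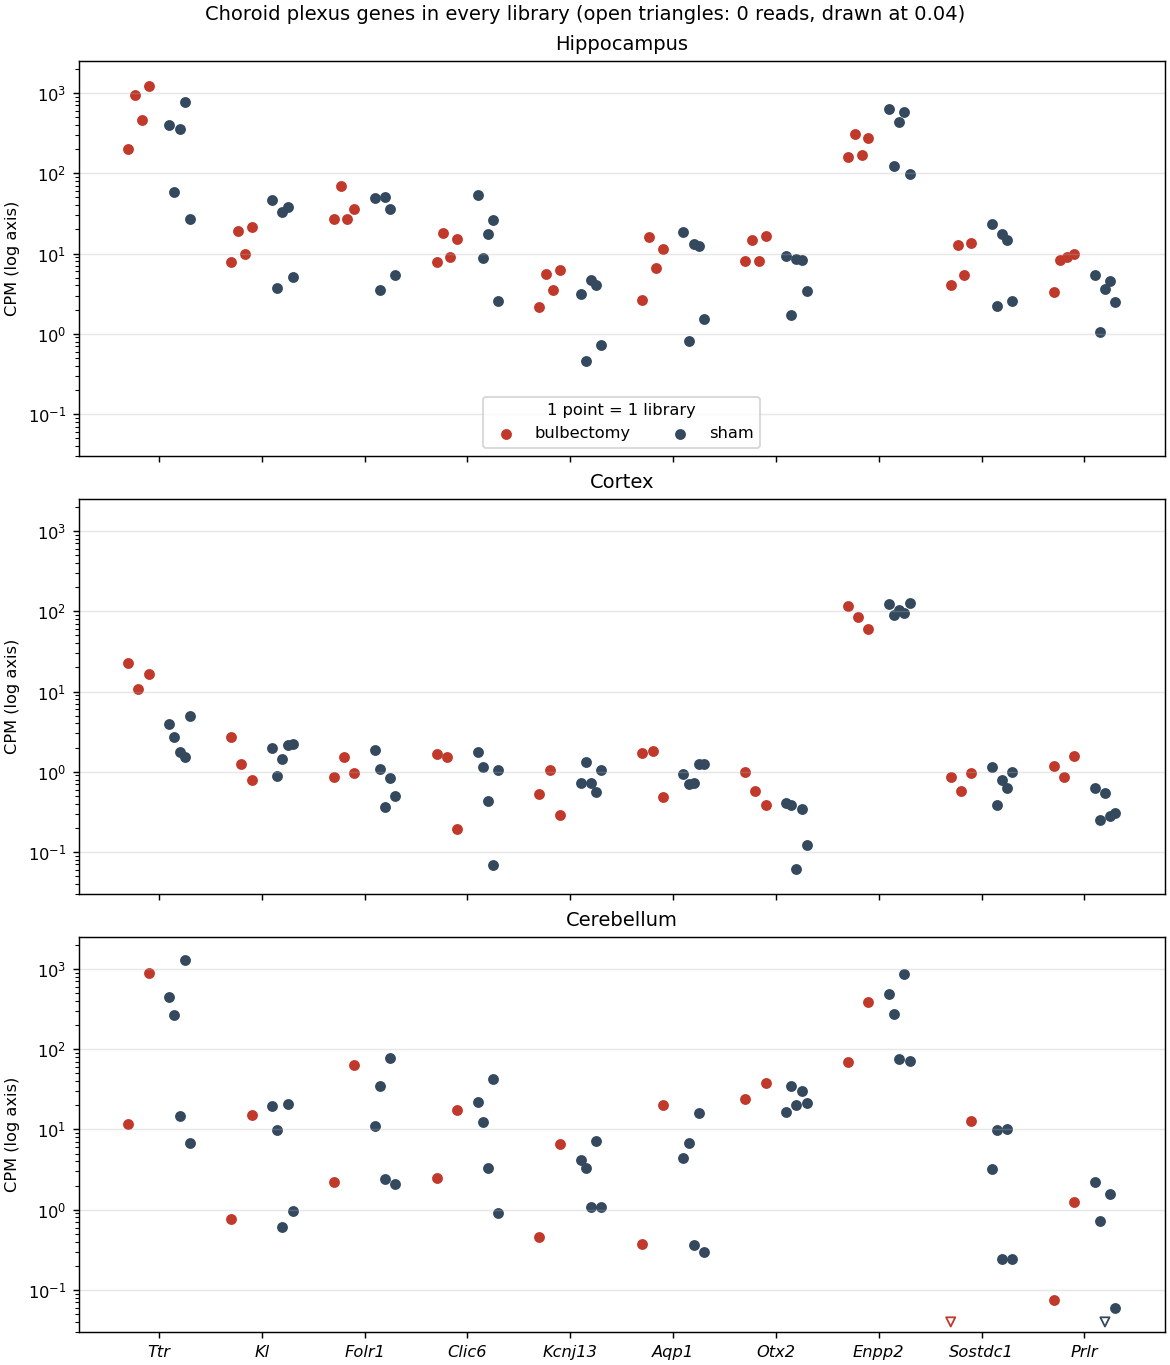
Level of each of the 10 genes in every library, in CPM on a log axis, with bulbectomy libraries (red) left of sham libraries (dark grey) in each tissue; each point is 1 library and open triangles mark 0 reads. In cerebellum, Ttr runs over 6.73 to 1291 CPM while Otx2 stays within 16.5 to 37.6 CPM, and in cortex the 3 bulbectomy libraries lie above every sham library for Ttr and Prlr.

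In the hippocampus no member was called after bulbectomy, and every member's groups overlapped. Among the 13985 genes tested there, 1.55% were called and 9.82% had levels without overlap between the groups. At an unadjusted p under 0.05, 2 members passed in edgeR (Otx2 and Prlr), and DESeq2 called 0. How many of all genes passed at that unadjusted p is not given, so no excess among the members is shown. The median log2 fold change of the 10 was 0.25, with 6 higher and 4 lower, against a median of 0.02 over all genes. In bulk tissue, fewer cells of a type and less RNA per cell cannot be told apart, so a low level of these genes may mean either.

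Among the secreted products, Ttr measured 203, 936, 460.0 and 1216 CPM in bulbectomy libraries 1 to 4, against 402, 58.1, 354, 774 and 27.3 CPM in sham libraries 1 to 5. Sham 2 and sham 5 lay below all other hippocampus libraries, and the highest values came from bulbectomy 4 and 2. The log2 fold change of Ttr was 1.12 ± 0.97 (SE; edgeR adjusted p = 0.545). Enpp2 measured 160.2, 305, 170.0 and 277 CPM in bulbectomy libraries and 634, 123, 439, 589 and 98.1 CPM in sham libraries. Its bulbectomy values all lay between the 2 lowest and the 3 highest sham values, and the fold change was -0.72 ± 0.59 (edgeR adjusted p = 0.521). Sostdc1 measured 4.04, 12.8, 5.45 and 13.5 CPM in bulbectomy libraries and 23.1, 2.20, 17.5, 14.6 and 2.56 CPM in sham libraries, the same arrangement as Enpp2, with a fold change of -0.39 ± 0.73.

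Among the receptors, Kl measured 7.75, 19.2, 9.99 and 21.7 CPM in bulbectomy libraries and 45.9, 3.70, 32.7, 37.8 and 5.13 CPM in sham libraries. Its bulbectomy values again lay inside the gap of the sham values, with a fold change of -0.76 ± 0.77 (edgeR adjusted p = 0.608). Folr1 measured 27.2, 70.1, 26.8 and 36.0 CPM in bulbectomy libraries and 48.8, 3.47, 51.0, 35.9 and 5.44 CPM in sham libraries. Its highest value came from bulbectomy 2 and its lowest from sham 2, and the fold change was 0.48 ± 0.80. Prlr measured 3.28, 8.42, 9.08 and 9.85 CPM in bulbectomy libraries and 5.42, 1.04, 3.60, 4.55 and 2.46 CPM in sham libraries. Bulbectomy 2, 3 and 4 lay above every sham library and bulbectomy 1 among them, with a fold change of 1.18 ± 0.42 (edgeR adjusted p = 0.144).

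Among the channels, Kcnj13 measured 2.18, 5.58, 3.50 and 6.17 CPM in bulbectomy libraries and 3.14, 0.462, 4.73, 4.07 and 0.718 CPM in sham libraries. Aqp1 measured 2.62, 16.3, 6.61 and 11.3 CPM in bulbectomy libraries and 18.5, 0.809, 13.1, 12.3 and 1.54 CPM in sham libraries. Clic6 measured 7.86, 18.0, 9.08 and 15.3 CPM in bulbectomy libraries and 54.2, 8.78, 17.7, 26.5 and 2.56 CPM in sham libraries. Sham 2 and sham 5 were the lowest libraries for Kcnj13 and Aqp1, while for Clic6 sham 2 lay among the bulbectomy libraries. The log2 fold changes were 0.71 ± 0.57 for Kcnj13, 0.02 ± 0.88 for Aqp1 and -0.77 ± 0.74 for Clic6 (edgeR adjusted p = 0.512, 0.992 and 0.590). The sign of Aqp1 turned with no filter, with the replicate block, with DESeq2 and in 1 fit of all 24 libraries (between -0.23 and -0.0074), and without bulbectomy 2 or 4 or sham 2 or 5 (-0.42 at the lowest).

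The transcription factor Otx2 measured 8.19, 14.8, 8.04 and 16.6 CPM in bulbectomy libraries and 9.41, 1.73, 8.45, 8.40 and 3.39 CPM in sham libraries. Bulbectomy 2 and 4 were above every sham library, and bulbectomy 1 and 3 lay just under the 3 highest sham libraries. Its log2 fold change was 0.94 ± 0.43 (edgeR adjusted p = 0.248). Leaving out sham 1 and 2 together left 0 members called, and sham Ttr then averaged 385 ± 374 CPM (SD, n = 3). The log2 fold changes were then 0.87 ± 1.17 for Ttr, 1.08 ± 0.37 for Prlr, 0.80 ± 0.36 for Otx2 and -0.80 ± 0.73 for Kl, and each member kept its sign.

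**Figure D2:**
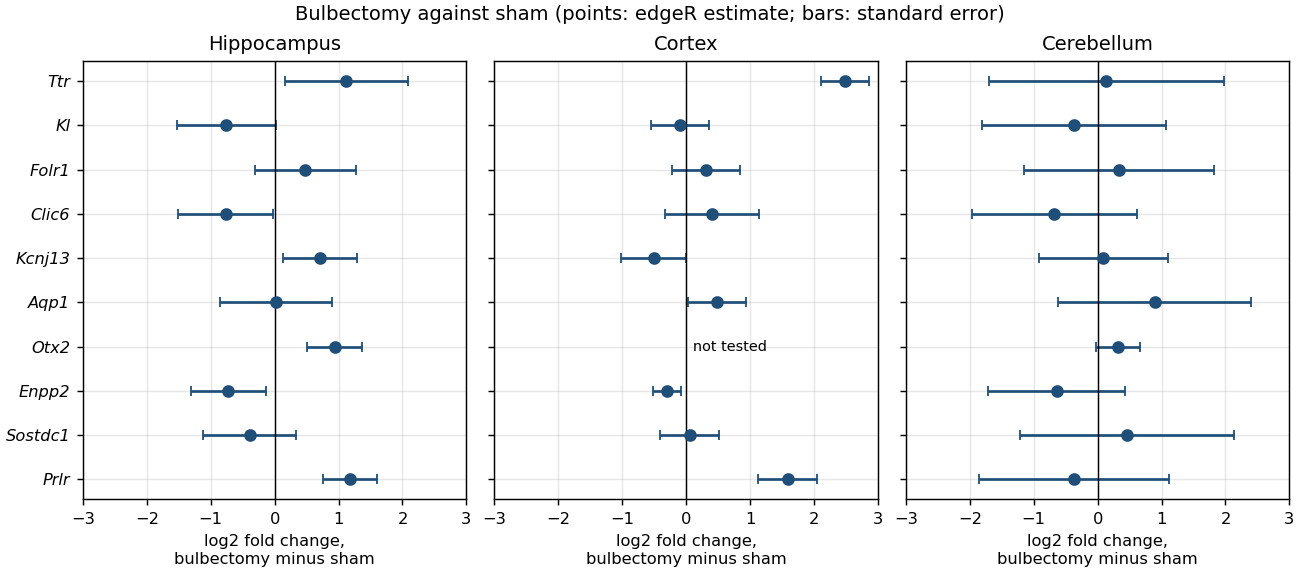
Log2 fold change of each gene, bulbectomy minus sham, with its standard error, in hippocampus, cortex and cerebellum (edgeR quasi-likelihood fit per tissue; Otx2 in cortex was not tested). The largest is that of Ttr in cortex at 2.49 ± 0.38, and the standard errors in cerebellum reach 1.84.

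The members varied together across the hippocampus libraries, as did some genes outside the set. Over the 9 libraries, the correlation of the other 9 members with Ttr on the log2 scale had a Pearson r of 0.72 to 0.94. Of these members, 7 passed at an adjusted p under 0.05 (exact permutation test over pairings, two-sided, Benjamini-Hochberg over 34 relations). The share of all genes that would pass is not given, so no excess among the members is shown. Kcnj13 had the highest r among the members, at 0.94 (exact permutation p = 0.00108, adjusted p = 0.0261). Its Spearman's rho was 0.88 (exact permutation p = 0.00308, adjusted p = 0.0261). Otx2 had r = 0.89 (exact p = 0.00306, adjusted p = 0.0261) and rho = 0.80 (exact p = 0.0138, adjusted p = 0.0465). Prlr had r = 0.83 (exact p = 0.00491, adjusted p = 0.0278) and rho = 0.90 (exact p = 0.00203, adjusted p = 0.0261). Clic6 and Enpp2 did not pass, with r = 0.72 for each (exact p = 0.0288 and 0.0289, adjusted p = 0.0701 for both) and rho of 0.63 and 0.58 (exact p = 0.0760 and 0.108).

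Kl, Folr1, Aqp1 and Sostdc1 passed with r of 0.76, 0.88, 0.87 and 0.81 (exact permutation p = 0.0150, 0.00888, 0.00442 and 0.00714), while their rho of 0.58, 0.62, 0.60 and 0.53 did not pass (exact p = 0.108, 0.0857, 0.0968 and 0.148). Without sham 2 and sham 5, the 2 libraries farthest from the median of Ttr, r fell to between 0.25 and 0.86 over 7 libraries. Kcnj13 then had r = 0.86 (exact p = 0.0141), Otx2 0.77 (exact p = 0.0319) and Prlr 0.74 (exact p = 0.0649). The other 6 members had r of 0.25 to 0.60, none with an exact p under 0.05, and their relations rest on those libraries. With each group's mean removed, r was 0.77 to 0.96. Without sham 1 and 2 together, r was 0.73 to 0.97 over 7 libraries and none passed after adjustment. None passed without bulbectomy 1, 2 or 4 either, and 3 passed without sham 2 or sham 5 and 4 without sham 4.

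Over all 45 pairs of members in hippocampus the median r was 0.85, and 43 pairs were above 0.5. The closest pair was Kl with Sostdc1 (r = 0.98) and the loosest Clic6 with Prlr (r = 0.40). Outside the 10, the 5 genes whose log2 CPM followed Ttr most closely over the 9 libraries were Adat2 (r = 0.95), Steap1 (0.95), Ndc1 (0.93), Oca2 (0.92) and Trpv4 (0.92). Steap1 and the cation channel gene Trpv4 are on the list of other choroid plexus genes. Adat2 and Ndc1 ranged far less than Ttr, over 1.85 to 3.20 and 4.72 to 10.4 CPM. The share of all genes or gene pairs that reach such r is not given, so the closeness is not shown to be particular to the members.

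**Figure D3:**
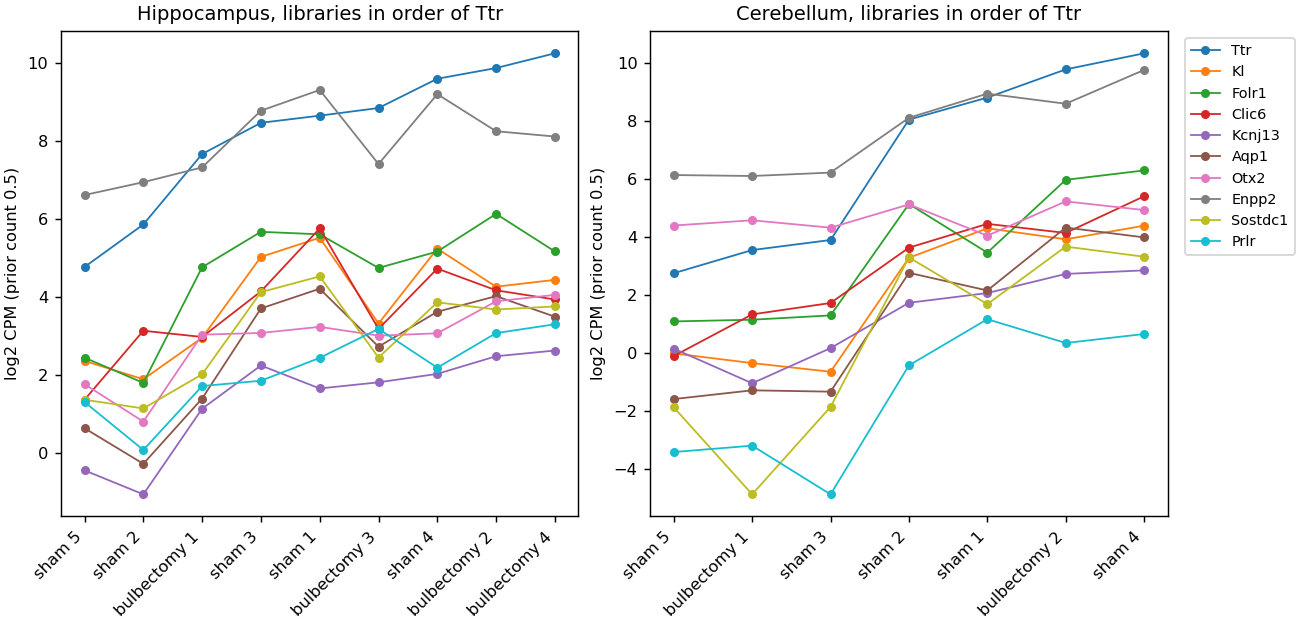
Log2 CPM (prior count 0.5) of the 10 genes across hippocampus (left) and cerebellum (right) libraries, with libraries placed from the lowest to the highest Ttr; each line is 1 gene. In cerebellum sham 5, bulbectomy 1 and sham 3 lie low for 9 of the 10 genes and the Otx2 line stays nearly flat, while in hippocampus the lines climb from the lowest libraries but not evenly, with Kl, Folr1, Clic6, Aqp1, Enpp2, Sostdc1 and Otx2 lower in bulbectomy 3 than in sham 1, which precedes it.

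Relative to Ttr in the same library, the hippocampus groups stood apart for Kl. Kl had 3.82, 2.05, 2.17 and 1.79 reads per 100 Ttr reads in bulbectomy libraries, against 11.4, 6.36, 9.23, 4.89 and 18.8 in sham libraries. All bulbectomy ratios lay below all sham ratios, with and without sham 1 and 2. Of 13984 genes, 0.636% had ratios to Ttr without overlap, 0.629% with lower ratios after bulbectomy, and Kl was the 1 member of 9 among them. Lower ratios were not particular to Kl or to hippocampus. In cortex, 5 members had bulbectomy ratios below all sham ratios: Kl, Kcnj13, Aqp1, Enpp2 and Sostdc1. Ttr itself was higher there in every bulbectomy library, and the share of all genes with such ratios in cortex is not given. In cerebellum 0 members had ratios without overlap. Because Ttr itself enters each ratio, these ratios are given as a description with no test.

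Enpp2, Clic6 and Sostdc1 came close to the same arrangement. Enpp2 had 78.9, 32.5, 37.0 and 22.8 reads per 100 Ttr reads in bulbectomy libraries and 158, 212, 124, 76.1 and 359 in sham libraries, so that only bulbectomy 1 and sham 4 crossed. Clic6 had 3.87, 1.93, 1.97 and 1.26 in bulbectomy libraries and 13.5, 15.1, 5.0, 3.43 and 9.40 in sham libraries. Sostdc1 had 1.99, 1.37, 1.18 and 1.11 in bulbectomy libraries and 5.75, 3.78, 4.93, 1.88 and 9.40 in sham libraries. For Clic6 and Sostdc1 too, bulbectomy 1 and sham 4 were the pair that crossed. The ratios of Otx2 overlapped more widely, at 4.03, 1.59, 1.75 and 1.37 in bulbectomy libraries and 2.34, 2.98, 2.39, 1.08 and 12.4 in sham libraries.

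**Figure D4:**
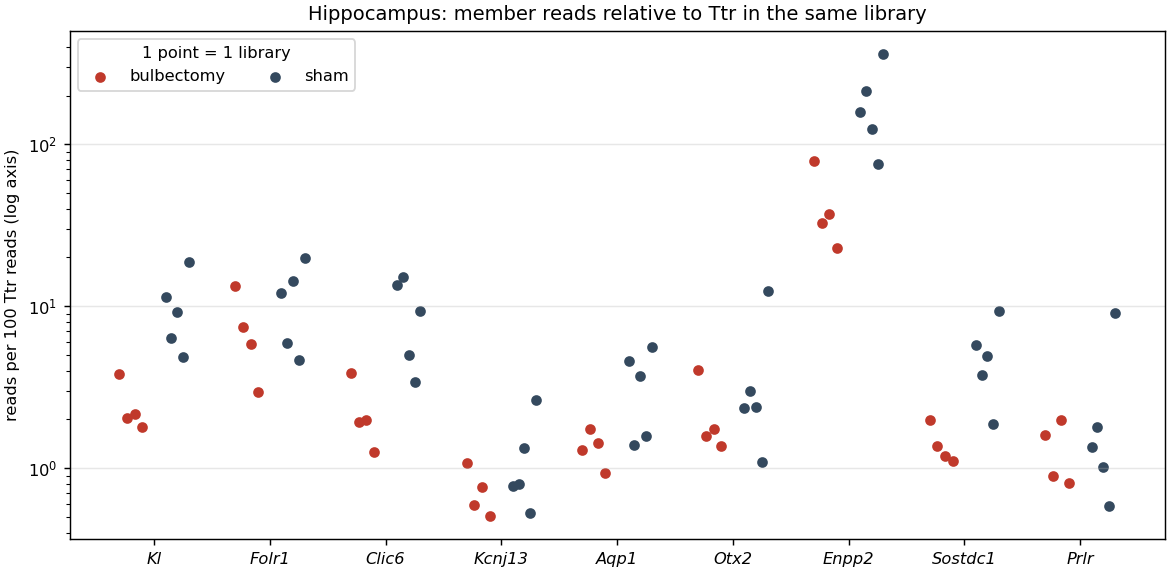
Reads of each other member per 100 Ttr reads of the same hippocampus library, on a log axis, with bulbectomy libraries (red) left of sham libraries (dark grey); each point is 1 library. For Kl the bulbectomy points, 1.79 to 3.82, lie below the sham points, 4.89 to 18.8, and for the other 8 genes the groups overlap.

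Among the gene lists, only that of thalamus and habenula had summed levels without overlap between the hippocampus groups. The summed level of 15 genes of thalamus and habenula was 252 to 353 CPM in bulbectomy libraries and 101 to 179 CPM in sham libraries. Of the 14 tested, 5 were called higher, where 1.55% of 13985 genes were called in either direction. None of the 15 was at 0 in all libraries. The list was chosen with earlier results of these data known, so these calls are no independent support. The 5 were Gpr151 (log2 fold change 3.55 ± 0.53), Gng8 (2.64 ± 0.39), Chrnb4 (2.63 ± 0.39), Tac2 (2.15 ± 0.31) and Rora (1.71 ± 0.29), with edgeR adjusted p of 0.00655 to 0.0137. Without sham 1 and 2 together all but Rora (adjusted p = 0.0657) were called. Rora was also not called without bulbectomy 4 (0.0665) or sham 4 (0.0529) or in 1 fit of all 24 libraries (0.113), and Gpr151 with the replicate block (0.0659). Cbln1, on the list of cerebellar genes, was also called (1.77 ± 0.26, edgeR adjusted p = 0.00655). The part of this in the values of the choroid plexus genes was not tested. The summed level of 14 ependymal genes overlapped, at 75.7 to 96.7 CPM in bulbectomy libraries and 48.7 to 83.3 CPM in sham libraries, and that of 14 oligodendrocyte genes, the other source of Enpp2, was 4721 to 6139 CPM in bulbectomy libraries and 3564 to 6467 CPM in sham libraries.

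In the cortex Ttr was higher in all 3 bulbectomy libraries than in any sham library, and the difference missed the threshold in the main test. It measured 22.7, 10.7 and 16.6 CPM in bulbectomy libraries 1, 2 and 4, against 3.93, 2.73, 1.77, 1.53 and 4.95 CPM in sham libraries 1 to 5. These levels rest on 341, 113 and 170 reads in bulbectomy libraries and on 22 to 80 reads in sham libraries. The means were 16.7 ± 5.96 CPM (SD, n = 3) in bulbectomy libraries and 2.98 ± 1.45 CPM (n = 5) in sham libraries, a log2 fold change of 2.49 ± 0.38 (edgeR adjusted p = 0.0603). Ttr was called with RLE size factors (adjusted p = 0.0410), with no filter on low counts (2.13e-05), with the replicate number as a block (0.00686), by DESeq2 (2.71e-07), and without bulbectomy 1 (0.0167) or bulbectomy 4 (0.0362). It was not called when any other library was left out (edgeR adjusted p = 0.0521 to 0.211) or when all 24 libraries shared 1 fit (adjusted p = 0.973).

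Prlr was the other member whose cortex groups did not overlap, with 1.20, 0.855 and 1.56 CPM in bulbectomy libraries and 0.620, 0.254, 0.548, 0.278 and 0.309 CPM in sham libraries. It rested on few reads, 9 to 18 in bulbectomy libraries and 4 to 9 in sham libraries, and was not called (log2 fold change 1.59 ± 0.46, edgeR adjusted p = 0.648). Among the 14847 genes tested, 3.64% had levels without overlap, 2.2% on the higher side, and 0.0202% were called. The other 7 members tested overlapped and were not called, with log2 fold changes of -0.51 to 0.48. In all, 0 of 9 members tested were called by edgeR, 2 had an unadjusted p under 0.05 (Ttr and Prlr), and DESeq2 called Ttr alone. The share of all genes at that unadjusted p is not given, so the 2 are not shown to exceed it. The median fold change of the 9 was 0.31, against 0.01 over all genes.

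Folr1, Kl and Kcnj13 were low in cortex in both groups. Folr1 measured 0.864, 1.52 and 0.976 CPM in bulbectomy libraries and 1.86, 1.08, 0.365, 0.835 and 0.495 CPM in sham libraries. Kl measured 2.73, 1.24 and 0.781 CPM in bulbectomy libraries and 1.96, 0.888, 1.46, 2.16 and 2.23 CPM in sham libraries. Neither showed the higher bulbectomy values of Ttr, and the largest Kl value came from bulbectomy 1. Kcnj13, the member with the highest Pearson r with Ttr in hippocampus, had a fold change of -0.51 ± 0.51. It measured 0.532, 1.05 and 0.293 CPM in bulbectomy libraries and 0.724, 1.33, 0.731, 0.556 and 1.05 CPM in sham libraries. Aqp1 (0.48 ± 0.46), Clic6 (0.40 ± 0.74) and Sostdc1 (0.06 ± 0.46) were likewise not called.

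Enpp2 was far more abundant in cortex than the rest of the set, at 117, 85.0 and 59.6 CPM in bulbectomy libraries and 121, 88.8, 103, 95.9 and 128 CPM in sham libraries, and its fold change was -0.30 ± 0.22 (edgeR adjusted p = 0.879). The 14 oligodendrocyte genes summed to 1967 to 2701 CPM in bulbectomy libraries and 1520 to 2229 CPM in sham libraries. Otx2 was below the filter on low counts, with 4 to 15 reads in bulbectomy libraries and 1 to 6 in sham libraries, and was not tested. Its levels were 0.997, 0.570 and 0.390 CPM in bulbectomy libraries and 0.414, 0.381, 0.0609, 0.348 and 0.124 CPM in sham libraries, so that bulbectomy 1 and 2 lay above every sham library.

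In cortex, 1 of the 8 members tested was correlated with Ttr. How many of all genes would pass there is not given, so this count shows no excess among the members. Over the 8 libraries, r ran between -0.39 for Kcnj13 and 0.83 for Prlr, and Prlr alone passed (exact permutation p = 0.0148, adjusted p = 0.0465; rho = 0.81, exact p = 0.0218, adjusted p = 0.0617). Without bulbectomy 1 and 4, the libraries farthest from the median of Ttr, r of Prlr was 0.58 over 6 libraries (exact permutation p = 0.224), so the relation rests on those libraries. With group means removed it was 0.21 (exact p = 0.622). The median r over 36 pairs of members was 0.20, and most members had under 30 reads in a cortex library, so counting error limits these values. The genes most like Ttr over the 8 libraries were Tgfbr3 (r = 0.97), Slc10a4 (0.96), Sft2d3 (0.95), Pcdh15 (0.94) and Rnf165 (0.93), none of them on the choroid plexus list. Tgfbr3 encodes the betaglycan co-receptor of TGF-beta.

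No gene of the marker lists given here was called between the cortex groups. The summed levels of some lists did not overlap, and those of others did. The 9 neocortical genes summed to 452 to 495 CPM in bulbectomy libraries and 503 to 571 CPM in sham libraries, without overlap and with none called. Hippocampal markers overlapped, at 265, 596 and 342 CPM in bulbectomy libraries 1, 2 and 4 and 199 to 271 CPM in sham libraries. All 8 ependymal genes tested had a positive fold change (median 0.57), with none called, and the summed level of all 14 on the list overlapped at 26.5 to 41.2 CPM in bulbectomy libraries and 20.6 to 28.0 CPM in sham libraries. The 14 genes of leptomeningeal fibroblasts summed to 1865 to 2538 CPM in bulbectomy libraries and 1115 to 1680 CPM in sham libraries, with none of the 14 called. Most of that sum came from Ptgds alone, at 1549 to 2180 CPM in bulbectomy libraries and 873 to 1393 CPM in sham libraries. Of the 14 genes, 8 were higher and 6 lower, with a median log2 fold change of 0.12. The other 30 choroid plexus genes summed to 324 to 402 CPM in bulbectomy libraries and 260 to 290 CPM in sham libraries, which also did not overlap. Of the 19 of them tested, 14 were higher and 5 lower, 0 were called, and the median log2 fold change was 0.23. Among those of smallest p were the transporters Slc29a4 (log2 fold change 0.83 ± 0.27) and Slc13a4 (0.63 ± 0.21) and Lbp (0.57 ± 0.29). Kcne2, a potassium channel subunit of the choroid plexus epithelium, had 0 reads in 2 of 3 bulbectomy and in 4 of 5 sham libraries. The part of these markers in the Ttr values was not tested.

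In the cerebellum the members fell into high and low libraries that crossed the treatment groups. Ttr measured 11.7 and 879 CPM in bulbectomy libraries 1 and 2, against 448, 265, 14.9, 1291 and 6.73 CPM in sham libraries 1 to 5. Bulbectomy 2 and sham 1, 2 and 4 were high, bulbectomy 1 and sham 3 and 5 were low, and a 17.8-fold gap separated them. Enpp2 had the same high and low libraries, at 68.9 and 387 CPM in bulbectomy libraries and 493, 277, 74.8, 868 and 70.5 CPM in sham libraries, a range of 12.6-fold against 192-fold for Ttr. Across the same libraries the oligodendrocyte genes summed to 4820 to 5204 CPM in bulbectomy libraries and 4429 to 5148 CPM in sham libraries.

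The receptors and channels showed the same high and low libraries. Kl measured 0.756 and 15.2 CPM in bulbectomy libraries and 19.7, 9.74, 0.609, 21.0 and 0.962 CPM in sham libraries. Folr1 measured 2.19 and 62.9 CPM in bulbectomy libraries and 11.0, 35.3, 2.44, 78.7 and 2.10 CPM in sham libraries. Within the high libraries they differed, since Folr1 was lowest in sham 1 and Kl lowest in sham 2. Aqp1 measured 0.378 and 20.1 CPM in bulbectomy libraries and 4.45, 6.79, 0.365, 15.9 and 0.301 CPM in sham libraries. Clic6 measured 2.50 and 17.7 CPM in bulbectomy libraries and 22.0, 12.4, 3.29, 42.5 and 0.902 CPM in sham libraries. Kcnj13, at 0.454 and 6.62 CPM in bulbectomy libraries and 4.18, 3.30, 1.10, 7.21 and 1.08 CPM in sham libraries, kept the same split over a smaller range of 15.9-fold.

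The low libraries were near the detection limit for Sostdc1 and Prlr. Sostdc1 had 0 and 256 reads in bulbectomy libraries and 36, 110, 4, 129 and 4 reads in sham libraries, and the 0 in bulbectomy 1 allows up to 0.227 CPM (3 reads). Prlr had 1 and 25 reads in bulbectomy libraries and 25, 8, 0, 20 and 1 reads in sham libraries, and the 0 in sham 3 allows up to 0.183 CPM. These limits cover counting error only. Otx2 departed from the pattern, with 23.9 and 37.6 CPM in bulbectomy libraries and 16.5, 34.9, 20.0, 30.5 and 21.1 CPM in sham libraries, a range of 2.27-fold. It was lowest in sham 1, where Ttr was among the high values.

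No member was called in cerebellum, and every member's groups overlapped, where 0.0131% of 15295 genes were called and 10.9% had levels without overlap. At an unadjusted p under 0.05 there were 0 members in edgeR, and DESeq2 also called 0. Log2 fold changes were 0.14 ± 1.84 for Ttr, 0.89 ± 1.51 for Aqp1, -0.68 ± 1.30 for Clic6 and 0.32 ± 0.34 for Otx2 (edgeR adjusted p = 0.9998 for each). With 2 bulbectomy libraries, 1 high and 1 low, the fold change of Ttr was 1.12 without bulbectomy 1 and -5.10 without bulbectomy 2.

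Because the cerebellum libraries fell into separate sets, no correlation over them is given. The genes outside the 10 whose levels ran most like Ttr there were Car12, Tmem184a, Tmem72, Mfrp and Kcne2, and 4 of these 5, all but Tmem184a, are on the list of other choroid plexus genes. Kcne2 measured 0.151 and 6.32 CPM in bulbectomy libraries and 3.82, 2.41, 0, 9.61 and 0 CPM in sham libraries, with the same high and low libraries as Ttr. Car12, a carbonic anhydrase, measured 0.681 and 19.1 CPM in bulbectomy libraries and 12.4, 12.3, 0.974, 27.3 and 0.781 CPM in sham libraries. The 30 other choroid plexus genes summed to 335 and 744 CPM in bulbectomy libraries and 406, 665, 349, 894 and 349 CPM in sham libraries, so their summed level separated the same libraries over a much smaller range.

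Whether bulbectomy acted differently on the members between tissues was tested in 1 fit of all 24 libraries. No member and none of the 16564 genes was called in any of the 3 contrasts between tissues (edgeR quasi-likelihood test). At an unadjusted p under 0.05 there were 466, 511 and 276 genes for hippocampus against cortex, hippocampus against cerebellum and cortex against cerebellum, and 0 members in each. The smallest unadjusted member p was 0.287, 0.250 and 0.160 in these contrasts. The bulbectomy effect on Ttr is thus not shown to differ between cortex and the other tissues.

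Among genes that act with the members, 1 was called in the hippocampus. Of 19 genes of thyroid hormone and retinol carriage, uptake and reception, the cargo of transthyretin, 18 were tested, 9 were higher and 9 lower, and 0 were called. Among those of smallest p was the thyroid hormone receptor gene Thra, at 444 ± 88.4 CPM in bulbectomy libraries (SD, n = 4) and 662 ± 64.7 CPM in sham libraries (n = 5; log2 fold change -0.58 ± 0.17, edgeR adjusted p = 0.0986). Without sham 1 and 2 together Thra was at -0.66 ± 0.19 (adjusted p = 0.0787), and DESeq2 called it (adjusted p = 0.0150). Of 29 ligands, receptors and downstream genes of the other members, 22 were tested and 1 was called, where 1.55% of all genes tested were called. Plpp3, which encodes a phosphatase that breaks down lysophosphatidic acid, the product of autotaxin, fell to 88.3 ± 13.2 CPM in bulbectomy libraries (SD, n = 4), against 164 ± 45.4 CPM in sham libraries (n = 5; log2 fold change -0.89 ± 0.20, edgeR adjusted p = 0.0451). Without sham 1 and 2 together it was called (-0.79 ± 0.18, adjusted p = 0.0329). It was not called with the replicate block (adjusted p = 0.0619), in 1 fit of all 24 libraries (0.105), or without any 1 bulbectomy library or sham 1 or 4 (0.0507 to 0.156). Of the 26 other choroid plexus genes tested, 16 were higher and 10 lower, 0 were called and the median was 0.14, with Msx1 (0.90 ± 0.30), Trpv4 (0.85 ± 0.36) and Lbp (0.73 ± 0.32) among those of smallest p. In cortex and cerebellum 0 genes of the carriage and partner lists were called. Those of smallest p included, in cortex, the retinoic acid receptor gene Rara (0.64 ± 0.23), Lrp4 (-0.57 ± 0.22) and Socs2 (0.39 ± 0.21). In cerebellum they included the amino acid transporter gene Slc7a5 (0.46 ± 0.18), Bmp7 (-0.62 ± 0.27) and Cish (-0.60 ± 0.34). Of the other choroid plexus genes in cerebellum, those of smallest p were Igf2 (-1.66 ± 0.52), Col8a1 (-2.13 ± 1.06), Slc13a4 (0.29 ± 0.22) and 1500015O10Rik (-0.55 ± 0.50), none called.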

How the data were processed

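The authors deposited raw counts, whole reads per Ensembl gene, with a separate file for every library. Trimmomatic, STAR, featureCounts and the mm10 build are named in the submitters' processing notes. Per the labels' protocols, directional polyA libraries were made from RNA whose integrity number was 8 or more. The sources used here do not give annotation release, strand setting or versions. Reads overlapping no gene, 2.62% to 9.22% of assigned, ambiguous and such reads together, stayed out of library sizes and tests.

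GENCODE M21 on GRCm38 gave coordinates and union exon lengths, and RefSeq the promoter windows. Bulbectomy was tested against sham within each tissue by edgeR 4.0.16 (R 4.3.3, limma 3.58.1) with filterByExpr, TMM scaling and a robust quasi-likelihood fit. P-values were Benjamini-Hochberg adjusted across the genes tested, with calls at 0.05. Standard errors came from the same fit. Sham tissues were compared in 1 fit of the 15 sham libraries with its own TMM scaling. The scripts were tested on simulated counts. Correlations used log2 CPM with a prior count of 0.5 and exact permutation. The adjustment covered 34 relations, fewer than planned, because Otx2 in cortex was not tested and cerebellum had no pooled correlation. The rule for separate sets, neighbouring Ttr values more than 10-fold apart, was chosen after seeing the data. A count of 0 allows up to 3 reads.

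The 10 members, and 12 further gene lists with 189 symbols (188 found), were chosen with earlier results of these data known. All members are named. The rule for the lists, within each tissue, was to name called genes or else the 2 of smallest p (4 for other choroid plexus genes), with the 5 genes most like Ttr per tissue. Lists of other cell types and tissues with no called gene are given by counts and sums, and by name only for Ptgds in cortex, which departs from it. The settings for called listed genes and Thra were added after seeing the data. Some genes that this rule names are not reported here. Kcne2 and Car12 levels were chosen for printing after their values were seen. Alternatives were DESeq2 1.42.0, RLE size factors, no low-count filter, a replicate block, leaving out each library, hippocampus sham 1 and 2 left out together, 1 fit of all 24 libraries, and, for correlations, another prior count and deviations from group means. Between sham hippocampus and sham cerebellum, same-numbered libraries deviated together in 5 of 5 pairs (r of 0.33 to 0.55). Between sham hippocampus and sham cortex, r was 0.29 to 0.58 for numbers 1 to 4 and -0.16 for number 5. Between sham cortex and sham cerebellum it was 0.25 to 0.50 and -0.19. Between bulbectomy hippocampus and bulbectomy cerebellum it was 0.16 and 0.18. Differently numbered libraries were not compared, so pairing is not shown, and the labels do not say what a number marks.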

Additional observations from a re-analysis of the deposited data

How the results depend on the processing

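In the hippocampus 0 members were called in every setting run, while the number of all genes called, 217, became 954 with DESeq2, 348 without sham 1 and 2 together, and 30 to 477 as single libraries were left out. In cortex 1 member, Ttr, was called with RLE size factors, with no low-count filter and with DESeq2, and 0 or 1 as single libraries were left out. All genes called there, 3 in the main test, became 7 with RLE, 24 with no filter, 39 with DESeq2, 5 with all 24 libraries in 1 fit and 1 to 573 as single libraries were left out. In cerebellum the 2 genes called became 12 with DESeq2 and 0 to 36 with single libraries left out, and 0 members were called in every setting run.

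With the replicate block, 76 genes were called in hippocampus, 13 in cortex, where Ttr was the 1 member called, and 0 in cerebellum. Same-numbered libraries did not deviate together in hippocampus or cortex, and cerebellum has 2 pairs, so the block is no evidence on the size of an effect there. The block turned the sign of Aqp1 in hippocampus (-0.23), of Folr1 in cortex (-0.13) and, in cerebellum, of Ttr (-1.72), Folr1 (-0.65), Kcnj13 (-0.88), Aqp1 (-0.63) and Sostdc1 (-1.72), none of them called. For sham hippocampus against sham cerebellum, where every same-numbered pair deviated together, the blocked Ttr difference was 0.33 and 2 members were still called. For sham hippocampus against sham cortex the block called 765 genes, where the main test called 500. It changed no other member's call except those of Kl and Kcnj13 between sham cortex and sham cerebellum, lost at adjusted p of 0.0862 and 0.0809.

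Aqp1 in hippocampus also turned with no filter (-0.0074), DESeq2 (-0.028) and all 24 libraries in 1 fit (-0.024), and lay between -0.42 and 0.34 with single libraries left out. In cortex, leaving out single libraries gave -0.77 to 0.19 for Kl, -0.0032 to 0.85 for Clic6 and -0.14 to 0.24 for Sostdc1. In cerebellum it gave -5.10 to 1.28 for Ttr, -3.75 to 0.56 for Kl, -3.55 to 1.36 for Folr1, -2.69 to 0.13 for Clic6, -2.86 to 0.98 for Kcnj13, -3.84 to 1.86 for Aqp1, -0.039 to 0.61 for Otx2, -2.36 to 0.13 for Enpp2, -8.99 to 1.45 for Sostdc1 and -3.40 to 0.49 for Prlr. The cause was not tested.

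For sham hippocampus against sham cortex, no filter on low counts left 1 member called and leaving out single libraries 2 to 8, while DESeq2 called 895 genes, and single libraries left out gave 284 to 592. For sham hippocampus against sham cerebellum, 1 member was called with no filter and 1 without hippocampus sham 1 and 2, and 1 or 2 with single libraries left out. There Ttr was 0.14 and Kcnj13 0.14 without hippocampus sham 1 and 2, and they lay between -0.74 and 1.08 and between -0.43 and 0.37 with single libraries left out. Between sham cortex and sham cerebellum 4 to 9 members were called with single libraries left out. The difference of the Ttr effect between hippocampus and cerebellum lay between -0.29 and 6.17.

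Of the members correlated with Ttr, 7 in hippocampus became 0 without sham 1 and 2 together and 0 to 8 with single libraries left out, and 1 in cortex became 0 with group means removed and 0 or 1 with single libraries left out. Fewer libraries also raise the smallest p an exact test can give. The planned correlations in cerebellum were not run, since its libraries fall into separate sets. In cortex and in the low cerebellum libraries most members rest on under 30 reads, which limits what can be told from their ratios.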
